A study of Bos taurus with 11 samples.

Results

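The nucleolar ribosome biogenesis factors described here are 72 genes. They were taken as the listed transcripts whose RefSeq accession maps to a bovine symbol of the UTP, NOP, NOL, RRP or POLR1 series or to a numbered DDX helicase other than DDX3X and DDX3Y, together with IMP3, IMP4, FBL, NCL, NPM1 and DKC1. The same 72 genes, on 73 transcripts because POLR1D is listed under 2 accessions, occur in the table of GATA3 KO, which lists 8446 symbols, and in that of CDX2 KO, which lists 11855. Of 87 bovine symbols that meet the rule, 15 are listed in neither table, among them UTP20, UTP3, DDX18 and RRP1B, and are not analysed here. The values are normalized counts, that is, reads counted per transcript and divided by 1 scaling factor per embryo.

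RNA was sequenced from 11 single bovine blastocysts on day 7 after fertilization. The study asked what GATA3 and CDX2, transcription factors of the trophectoderm, do in bovine lineage specification. The 3 WT control embryos had received mRNA of BE3, a cytosine base editor that turns C into T at guided sites, and no guide RNA. The 4 GATA3 KO and 4 CDX2 KO embryos had received at the zygote stage the same mRNA with a mix of sgRNAs against GATA3 or CDX2, meant to create premature stop codons, so that BE3 is shared by every group. Embryos were made in vitro, the zona pellucida was removed, and a Smart-seq2 library of polyadenylated RNA was made from each whole blastocyst. The authors checked editing in the sequenced embryos by Sanger sequencing of cDNA, and editing at the zygote stage need not reach every cell alike. Each KO was compared with the same 3 WT control embryos in a table normalized on its own, so the 2 comparisons are not independent. KO embryos are named by the numbers of their table columns, 3 to 6 for GATA3 KO and 2 to 5 for CDX2 KO.

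Ribosomes are assembled in the nucleolus. RNA polymerase I transcribes the precursor of the large ribosomal RNAs, and the small subunit processome, with UTP proteins, IMP3 and IMP4, folds and cleaves its small subunit part while other factors, among them NOP2, NOP16 and RRP15, assemble the large subunit. Small nucleolar ribonucleoproteins guide chemical marks onto the RNA, with FBL as the methyltransferase and DKC1 as the pseudouridine synthase, and DEAD-box helicases remodel the particles. In mammalian embryos the nucleolus becomes active as the embryonic genome is switched on. The name of the group does not hold for every member: 14 of the listed DDX genes are best known for other work, such as splicing (DDX23), mRNA export (DDX39B), mRNA storage (DDX6) or the mitochondrial ribosome (DDX28), and NOL3 is known as an inhibitor of apoptosis. They were kept, since the rule is by symbol, and counts are also given without them.

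Embryos had 150057 to 540775 counts in the GATA3 KO table and 100731 to 662962 in the other, and 3 counts, taken as the floor of detection, equal 1.29 to 4.66 and 1.61 to 6.99 normalized counts. These floors cover counting error only, since the libraries carry no molecular identifiers. Counts of the same WT embryos were 1.82 to 1.88 times higher in the table of CDX2 KO, for a cause not given in the sources used here, so 3 counts there may stand for fewer fragments and its floors may be too low. GATA3 itself was 79.9 ± 8.17 (SD, n = 3) in WT and 12.2 ± 1.58 (SD, n = 4) in GATA3 KO embryos, and CDX2 was 8.94 ± 2.09 (SD, n = 3) in WT and 3.57 ± 1.34 (SD, n = 4) in CDX2 KO embryos, close to the floor. Markers of the trophectoderm (7 of 8 listed, summed level 3263 to 7474 in WT and 3616 to 5185 in GATA3 KO) and of the inner cell mass (5 of 5, 167 to 213 and 91.2 to 218) were present. In the table of CDX2 KO these ranges were 4578 to 11560 in WT and 2204 to 7509 in KO for the trophectoderm, and 218 to 289 and 139.8 to 322 for the inner cell mass. Primitive endoderm markers summed to 31.6 to 71.3 in WT and 10.1 to 39.2 in GATA3 KO embryos (3 of 4 listed), and to 48.1 to 88.5 in WT and 25.7 to 111.8 in CDX2 KO embryos (4 of 4). Cumulus markers (2 of 7 listed in the table of GATA3 KO, 7 of 7 in the other) summed to 6.48 to 15.5 in WT and 2.38 to 7.24 in GATA3 KO, and to 22.2 to 42.4 in WT and 29.5 to 63.7 in CDX2 KO embryos. Sperm markers (1 of 4 and 3 of 4 listed) summed to 0 to 1.58 in WT and 0 to 8.21 in GATA3 KO, and to 2.29 to 5.08 in WT and 7.35 to 16.3 in CDX2 KO embryos. Sums can hide opposite changes of single markers, as in GATA3 KO for GATA2 (log2 fold change -1.16) and TFAP2C (1.03). The part of any of the markers above in the members' values was not tested. Y-linked counts were 29 to 98 in the WT embryos of the table of GATA3 KO and 0, 0, 2 and 68 in GATA3 KO embryos, and 46 to 149 in WT and 0, 0, 0 and 155 in CDX2 KO embryos. CDX2 KO embryo 3 had the fewest counts, with 14 of its 73 member transcripts at or below 3 counts.

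In GATA3 KO blastocysts 1 member rose past the threshold, UTP18, and none fell. Transcripts of a mean normalized count of 10 or more were compared by limma after adding 1 and taking log2, and a call needed a Benjamini-Hochberg adjusted p-value, over all tested transcripts, of 0.05 or less and a fold change of 1.5 or more, or of 0.6 or less. Adding 1 shrinks the log2 fold changes of low transcripts, while an embryo at or near 0 can enlarge them. Of the 73 member transcripts 61 passed the filter on the mean, and 1 of 61 was called, where 2.01% of all 4271 tested transcripts were called, 1.55% as higher and 0.468% as lower. The split of all calls depended on the scaling, with 66 higher and 20 lower by limma, 45 and 39 after quantile normalization, 55 and 71 with edgeR, and 119 and 45 with DESeq2. The total of 86 calls also rested on single embryos. It became 304, 1 and 20 on dropping WT control embryo 1, 2 and 3 in turn, 1, 25, 45 and 187 on dropping GATA3 KO embryo 3, 4, 5 and 6, and 16 with no trend. On the recovered counts edgeR called 1 member, UTP18, and 2.95% of all transcripts, and DESeq2 called 3 members, UTP18, DDX5 and NPM1, and 3.84% of all.

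At an unadjusted p under 0.05 there were 10 of 61 member transcripts (16.39%), beside 22.6% of all, of which 7 had higher and 3 had lower levels in GATA3 KO embryos. Groups did not overlap for 9 members with all KO embryos above all WT embryos (14.75%, beside 11.9% of all transcripts) and for 3 with all KO embryos below (4.918%, beside 7.05%). These shares lie near those of all transcripts. Log2 fold changes were positive for 39 members and negative for 22, with a median of 0.15 beside 0.11 for all tested transcripts. With the scaling of edgeR these medians were 0.02 and 0.0061, so a member with a log2 fold change within about 0.1 of 0 has no stable sign. Larger values could change sign under other settings. NOLC1 went from -0.41 to 0.14 with Y-linked expression as a covariate. Without the DDX genes best known elsewhere and NOL3, 1 of 50 was called and the median was 0.175. The p-values and 95% intervals measure the spread between these embryos, and in whole embryos fewer cells of a type and less RNA per cell cannot be told apart.

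**Figure D1:**
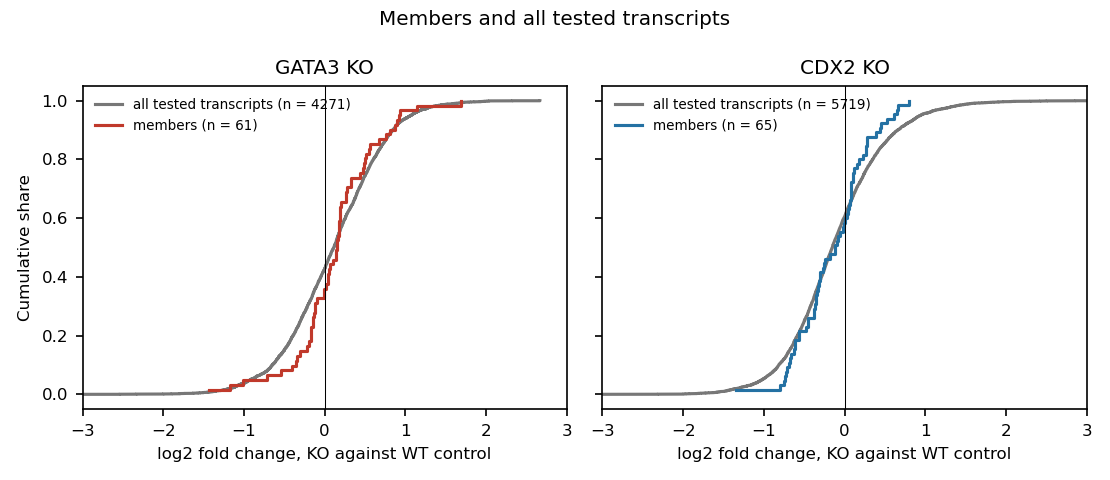
Cumulative share of transcripts (vertical axis) by log2 fold change of KO against WT control (horizontal axis, drawn from -3 to 3), for all tested transcripts in grey and for members in colour. The curves of members lie close to those of all transcripts in both knockouts, with medians of 0.15 and 0.11 in GATA3 KO and of -0.11 and -0.15 in CDX2 KO.

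UTP18 and UTP6 belong to the UTP-B complex, an early building block of the small subunit processome. UTP18 stood at 11.05, 6.48 and 10.9 normalized counts in the WT control group, against 33.3, 28.9, 32.2 and 33.7 in GATA3 KO embryos 3 to 6. All 4 KO embryos lay far above all WT embryos, and the means were 9.47 ± 2.59 (SD, n = 3) and 32.0 ± 2.18 (SD, n = 4). The log2 fold change was 1.69 (SE 0.31, limma adjusted p = 0.0136), that is 3.22-fold, and edgeR gave an adjusted p of 0.0220 and DESeq2 0.00595. These levels rest on 6 to 14 reads in WT and 23 to 67 in KO embryos. The call was lost without WT control embryo 2 (log2 fold change 1.46, limma adjusted p = 0.0877), without GATA3 KO embryo 3 (1.67, limma adjusted p = 0.0643) and with Y-linked expression as a covariate (1.76, limma adjusted p = 0.23). In the table of CDX2 KO, UTP18 was 16.5, 7.90 and 10.3 in WT and 6.13, 39.6, 15.8 and 26.3 in CDX2 KO embryos 2 to 5, so that KO embryos lay on both sides of WT (log2 fold change 0.66, SE 0.58).

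UTP6 was 51.3, 37.8 and 45.1 in WT and 75.2, 77.5, 73.8 and 89.5 in GATA3 KO embryos, without overlap. Its log2 fold change of 0.81 (SE 0.25) missed the threshold (limma adjusted p = 0.0718). The CDX2 KO embryos pointed the other way, with 80.6, 53.7 and 64.2 in WT and 34.3, 23.3, 47.3 and 61.7 in KO embryos (log2 fold change -0.72, SE 0.43, 95% interval -1.64 to 0.20).

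NOL6, which with RRP7 forms the UTP-C part of the processome, had lower values in all 4 GATA3 KO embryos. It was 16.6, 23.8 and 17.1 in WT and 10.1, 8.62, 7.15 and 9.85 in KO embryos (log2 fold change -1.01, SE 0.37, limma adjusted p = 0.127), which is not past the threshold. The CDX2 KO embryos had 45.4, 39.6, 22.4 and 26.3 for NOL6, beside 24.7, 30.8 and 24.1 in WT, with overlap.

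IMP3 and IMP4 bind the U3 small nucleolar RNA, which base-pairs with the precursor. IMP3 was 22.9, 13.0 and 12.4 in WT and 21.7, 29.7, 22.6 and 35.3 in GATA3 KO embryos, where only WT control embryo 1 reached into the KO range (log2 fold change 0.75, SE 0.32, limma adjusted p = 0.181). IMP4 was 31.6, 23.8 and 28.0 in WT and 27.5, 34.5, 36.9 and 41.9 in KO embryos (log2 fold change 0.32, SE 0.28). IMP3 in CDX2 KO embryos 2 to 5 was 11.0, 11.7, 14.9 and 49.9 beside 33.0, 19.0 and 18.3 in WT, so that 3 embryos lay below and embryo 5 lay above every WT embryo. IMP4 overlapped there, with 35.5, 25.6, 44.8 and 59.1 in KO and 48.2, 33.2 and 32.1 in WT embryos.

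Of 20 small subunit processome members 17 were tested in GATA3 KO. UTP18 was called, 4 had an unadjusted p under 0.05 (23.53%, beside 22.6% of all transcripts), and log2 fold changes ran from -1.01 to 1.69 with a median of 0.19, beside 0.11. UTP11 and UTP23, further processome factors, were chosen after their values were seen, because their groups did not overlap. UTP11 was 30.0, 29.2 and 31.1 in WT and 40.5, 43.9, 42.9 and 45.2 in GATA3 KO embryos (log2 fold change 0.50, SE 0.25, limma adjusted p = 0.245). UTP23 was 18.9, 16.2 and 18.6 in WT and 33.3, 23.3, 22.6 and 23.0 in KO embryos (0.47, SE 0.29, limma adjusted p = 0.352). Both overlapped in CDX2 KO, where 19 members of the processome were tested, none was called and the median log2 fold change was 0.08. NOL10 (log2 fold change -1.34, SE 0.94, but -0.42 with edgeR and -0.47 with DESeq2) was 16.5, 15.8 and 20.6 in WT and 6.13, 0, 29.0 and 12.3 in CDX2 KO embryos, and was chosen after its values were seen. The 0 of embryo 3 allows up to 6.99 normalized counts.

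**Figure D2:**
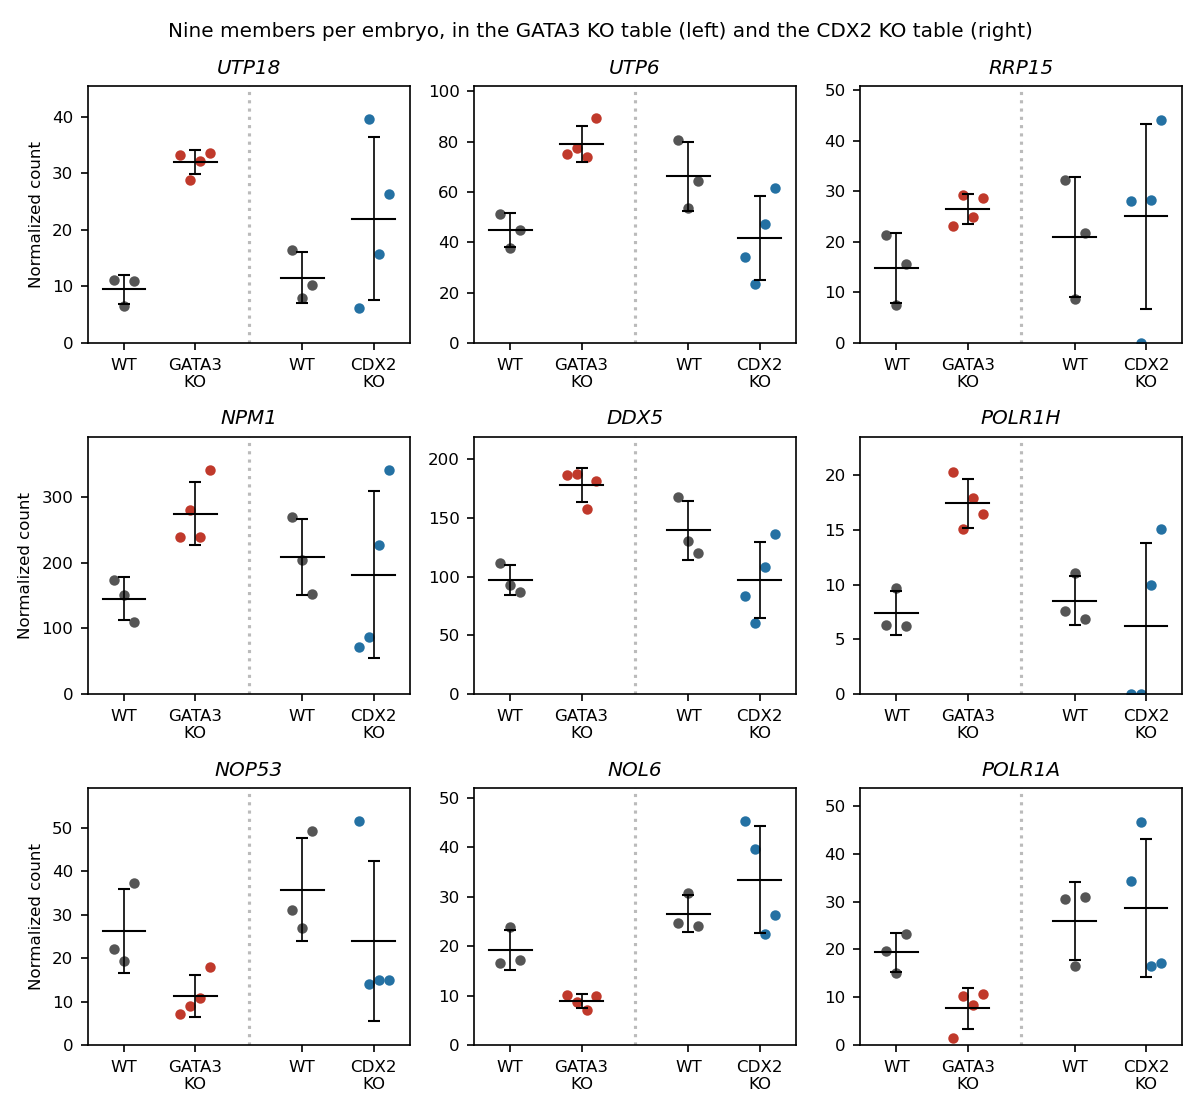
Normalized counts per embryo of 9 members (points), with the mean (bar) and SD (whiskers), in the table of GATA3 KO to the left and that of CDX2 KO to the right of the dotted line (n = 3 WT, 4 GATA3 KO and 4 CDX2 KO embryos). The panels were picked because GATA3 KO embryos lie apart from WT embryos, and show 6 of the 9 such members that lie above WT and the 3 that lie below (14.75% and 4.918% of tested members, beside 11.9% and 7.05% of all transcripts). CDX2 KO embryos overlap WT embryos in each.

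Among 6 tested factors of the large subunit, 2 had an unadjusted limma p under 0.05 in GATA3 KO (33.33%, beside 22.6% of all transcripts). These were NOP53 and RRP15, in opposite directions. NOP53, which recruits the exosome to trim precursor RNA of the large subunit, was 22.1, 19.4 and 37.3 in WT and 7.24, 9.05, 10.7 and 18.1 in GATA3 KO embryos. Every KO embryo lay below every WT embryo (log2 fold change -1.17, SE 0.38, limma adjusted p = 0.0851), and without GATA3 KO embryo 6 the limma adjusted p was 0.0466. NOP53 in the CDX2 KO embryos was 51.5, 14.0, 14.9 and 15.0 beside 31.1, 26.9 and 49.3 in WT, so that embryo 2 stood above and the other 3 below all WT embryos (log2 fold change -0.75, SE 0.50).

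RRP15, a factor of pre-60S particles, was 21.3, 7.57 and 15.5 in WT and 23.2, 29.3, 25.0 and 28.7 in GATA3 KO embryos (log2 fold change 0.90, SE 0.34, limma adjusted p = 0.139). RRP15 in CDX2 KO was 28.2, 0, 28.2 and 44.0 beside 32.4, 8.69 and 21.8 in WT, with the 0 in the embryo of lowest depth. NOP16, a pre-60S factor, was 38.7, 23.8 and 43.5 in WT and 49.2, 34.9, 34.5 and 50.9 in GATA3 KO embryos (0.28, SE 0.29). CDX2 KO embryos 2 and 3 were low for NOP16, at 23.3 and 21.0, and embryos 4 and 5 were at 86.2 and 53.7, beside 61.5, 33.2 and 60.8 in WT. Of 9 large subunit members 6 were tested in GATA3 KO and 7 in CDX2 KO, and none was called, with median log2 fold changes of 0.16 and -0.475. The latter is the value of RRP15, which turned to 0.41 with edgeR, where the median of the 7 was -0.08, the value of NOP16. When embryos were left out in turn RRP15 in CDX2 KO ran from -1.04 to 0.79.

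The box C/D particle methylates ribosomal RNA on the ribose. FBL, its methyltransferase, was 44.2, 50.8 and 68.4 in WT and 15.9, 43.5, 31.0 and 49.3 in GATA3 KO embryos, with overlap, and embryo 3 was the lowest at 11 reads (log2 fold change -0.72, SE 0.34, limma adjusted p = 0.221). FBL in CDX2 KO was 40.4, 46.6, 36.5 and 73.0 beside 63.4, 65.6 and 94.0 in WT, where embryos 2 to 4 lay below WT and embryo 5 did not (-0.62, SE 0.40). NOP58, a core protein of the particle, was 136, 105 and 148 in WT and 95.5, 152, 162 and 170.0 in GATA3 KO embryos (0.14, SE 0.26). It was 65.0, 119, 164 and 185 in CDX2 KO embryos 2 to 5 and 209, 144 and 206 in WT (-0.56, SE 0.44). NOPCHAP1, a chaperone for NOP58, was 12.6, 13.0 and 15.5 in WT and 15.9, 14.2, 19.1 and 14.0 in GATA3 KO embryos (0.19, 95% interval -0.51 to 0.88). None of the 4 box C/D members was called in either knockout.

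The box H/ACA particle turns uridine into pseudouridine through DKC1. DKC1 was 68.7, 73.5 and 45.1 in WT and 75.2, 81.8, 91.7 and 50.9 in GATA3 KO embryos (log2 fold change 0.26, SE 0.28, limma adjusted p = 0.605), and 121, 83.9, 114 and 82.7 in CDX2 KO embryos beside 100.9, 94.0 and 58.5 in WT (0.27, SE 0.39). NOLC1, a chaperone of both kinds of particle, was 43.4, 58.4 and 99.5 in WT and 39.1, 53.0, 34.5 and 69.8 in GATA3 KO embryos, with overlap. NOLC1 in CDX2 KO was 63.7, 51.3, 55.6 and 63.9 beside 66.0, 81.4 and 139.8 in WT. The groups did not overlap, but the highest KO and lowest WT embryo were close to equal (log2 fold change -0.63, SE 0.40, limma adjusted p = 0.90). Without WT control embryo 3 the value was -0.32 (SE 0.45).

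RNA polymerase I was represented by 8 POLR1 genes. POLR1A encodes the largest subunit, which forms the catalytic centre with POLR1B. POLR1A was 19.7, 15.1 and 23.3 in WT and 1.45, 10.3, 8.34 and 10.7 in GATA3 KO embryos, so that all KO embryos lay below WT, and embryo 3 rests on 1 read. The log2 fold change was -1.44 (SE 0.53, limma adjusted p = 0.129) and -0.91 without that embryo. POLR1B had the other sign, with 7.89, 15.1 and 10.9 in WT and 14.5, 12.5, 16.7 and 24.6 in GATA3 KO embryos (0.55, SE 0.37, limma adjusted p = 0.396). POLR1A in CDX2 KO was 34.3, 46.6, 16.6 and 17.2 beside 30.4, 16.6 and 30.9 in WT, and POLR1B was 7.35, 14.0, 18.2 and 18.2 beside 11.4, 20.5 and 16.1, both with overlap.

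POLR1H, the small subunit that takes part in RNA cleavage, was 6.31, 9.73 and 6.22 in WT and 20.3, 15.1, 17.9 and 16.4 in GATA3 KO embryos. All KO embryos lay above WT (log2 fold change 1.15, SE 0.38, limma adjusted p = 0.0916), on 4 to 9 reads in WT and 14 to 35 in KO embryos. In CDX2 KO embryos POLR1H was 0, 0, 9.95 and 15.0 beside 7.61, 11.1 and 6.88 in WT, and its mean was below the filter. The zeros of embryos 2 and 3 allow up to 3.68 and 6.99 normalized counts, beside a lowest WT value of 6.88, and the caution on the floors of this table holds for both.

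POLR1E and POLR1G form a dimer on the core enzyme and had log2 fold changes of opposite sign in GATA3 KO. POLR1E was 16.6, 15.1 and 18.6 in WT and 30.4, 20.7, 23.8 and 18.9 in GATA3 KO embryos, just without overlap (0.44, SE 0.30, limma adjusted p = 0.405). POLR1G was 15.0, 17.3 and 15.5 in WT and 7.24, 11.2, 15.5 and 9.85 in KO embryos (-0.55, SE 0.38, limma adjusted p = 0.41). POLR1F, of the stalk, was 32.4, 21.6 and 46.6 in WT and 26.1, 36.6, 58.4 and 28.7 in GATA3 KO embryos (0.15, SE 0.33). POLR1C, which is shared with RNA polymerase III, was 18.9, 16.2 and 15.5 in WT and 13.0, 15.5, 14.3 and 18.9 in KO embryos (-0.13, SE 0.32).

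POLR1D, also shared with RNA polymerase III, is listed as NM_001046587 and NM_001076144, between which reads could be split. The log2 fold change in GATA3 KO was -0.21 (SE 0.34) for the former and 0.48 (SE 0.46) for the latter, whose values were 4.32 to 11.8 in WT and 9.85 to 13.0 in KO embryos. Of the 9 transcripts tested in GATA3 KO none was called and 2 had an unadjusted p under 0.05, POLR1A and POLR1H (22.22%, beside 22.6% of all transcripts). In CDX2 KO 7 were tested and none was called, with log2 fold changes from -0.68 for POLR1C to 0.23 for POLR1E. POLR1C was 9.80, 14.0, 12.4 and 18.2 in CDX2 KO embryos beside 29.8, 20.5 and 17.2 in WT, where only embryo 5 reached the WT range.

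NPM1 and NCL are abundant proteins of the nucleolus that bind ribosomal RNA and shuttle to the cytoplasm. NPM1 was 174, 151 and 110.4 in WT and 239, 279.6, 239 and 341 in GATA3 KO embryos, with every KO embryo above every WT embryo. Its log2 fold change of 0.92 (SE 0.24, 1.90-fold) lay just outside the threshold with a limma adjusted p of 0.0518, and DESeq2 gave an adjusted p of 0.0139 and edgeR 0.0678. NPM1 has processed pseudogenes in mammals, so its reads may be shared. In CDX2 KO embryos 2 to 5 it was 72.3, 86.2, 226 and 342 beside 269, 205 and 152.5 in WT, which put embryos 2 and 3 below, embryo 4 within and embryo 5 above the WT range (-0.45, SE 0.54). Embryos 2 and 3 had 218797 and 100731 total counts, the lowest of that table, and the part of depth in this difference was not tested.

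NCL was 305, 376 and 317 in WT and 336, 379, 347 and 358 in GATA3 KO embryos, with overlap (log2 fold change 0.10, SE 0.21, 95% interval -0.35 to 0.54). NCL in CDX2 KO was 346, 249, 501 and 500.4 beside 457, 497 and 415 in WT, again with embryos 2 and 3 lowest (-0.25, SE 0.40).

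No DDX helicase with a place in ribosome assembly was called. DDX21, which binds the nascent precursor and small nucleolar RNAs, was 52.9, 65.9 and 69.9 in WT and 47.8, 50.4, 53.6 and 82.9 in GATA3 KO embryos (log2 fold change -0.12, SE 0.27). DDX27, a large subunit factor, was 54.5, 65.9 and 62.2 in WT and 59.3, 60.7, 66.7 and 54.2 in KO embryos (-0.01, SE 0.24, 95% interval -0.52 to 0.50). DDX47, a small subunit factor, was 20.5, 4.32 and 7.77 in WT and 21.7, 23.7, 10.7 and 19.7 in KO embryos (0.94, SE 0.45, limma adjusted p = 0.227), and WT control embryo 1 lay within the KO range. The log2 fold change of DDX47 ran from 0.48 to 1.49 when embryos were left out in turn (limma adjusted p 0.0574 to 0.64). Of 11 such helicases 9 were tested in GATA3 KO and 11 in CDX2 KO. None had an unadjusted p under 0.05 in limma, with median log2 fold changes of 0.19 and -0.08.

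DDX5, a coactivator and splicing helicase that also acts on small RNAs, had the clearest separation among the other DDX genes. It was 111, 92.9 and 87.0 in WT and 187, 187, 157 and 182 in GATA3 KO embryos (log2 fold change 0.87, SE 0.23, 1.83-fold, limma adjusted p = 0.0518), and DESeq2 gave an adjusted p of 0.0137 and edgeR 0.0630. In CDX2 KO embryos DDX5 was 83.3, 60.6, 109 and 136 beside 168, 130.3 and 120.4 in WT, with embryos 2 to 4 below WT and embryo 5 within its range (-0.56, SE 0.41). DDX6, a helicase of P-bodies, was 37.1, 44.3 and 42.0 in WT and 31.8, 22.8, 40.5 and 36.1 in GATA3 KO embryos (-0.34, SE 0.28), and 83.3, 25.6, 51.4 and 72.5 in CDX2 KO embryos beside 52.0, 55.3 and 51.6 in WT. Of 14 such genes 11 were tested in GATA3 KO and 12 in CDX2 KO, and none was called. Counts of the near-identical pairs DDX19A with DDX19B and DDX39A with DDX39B could be split between copies.

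**Figure D3:**
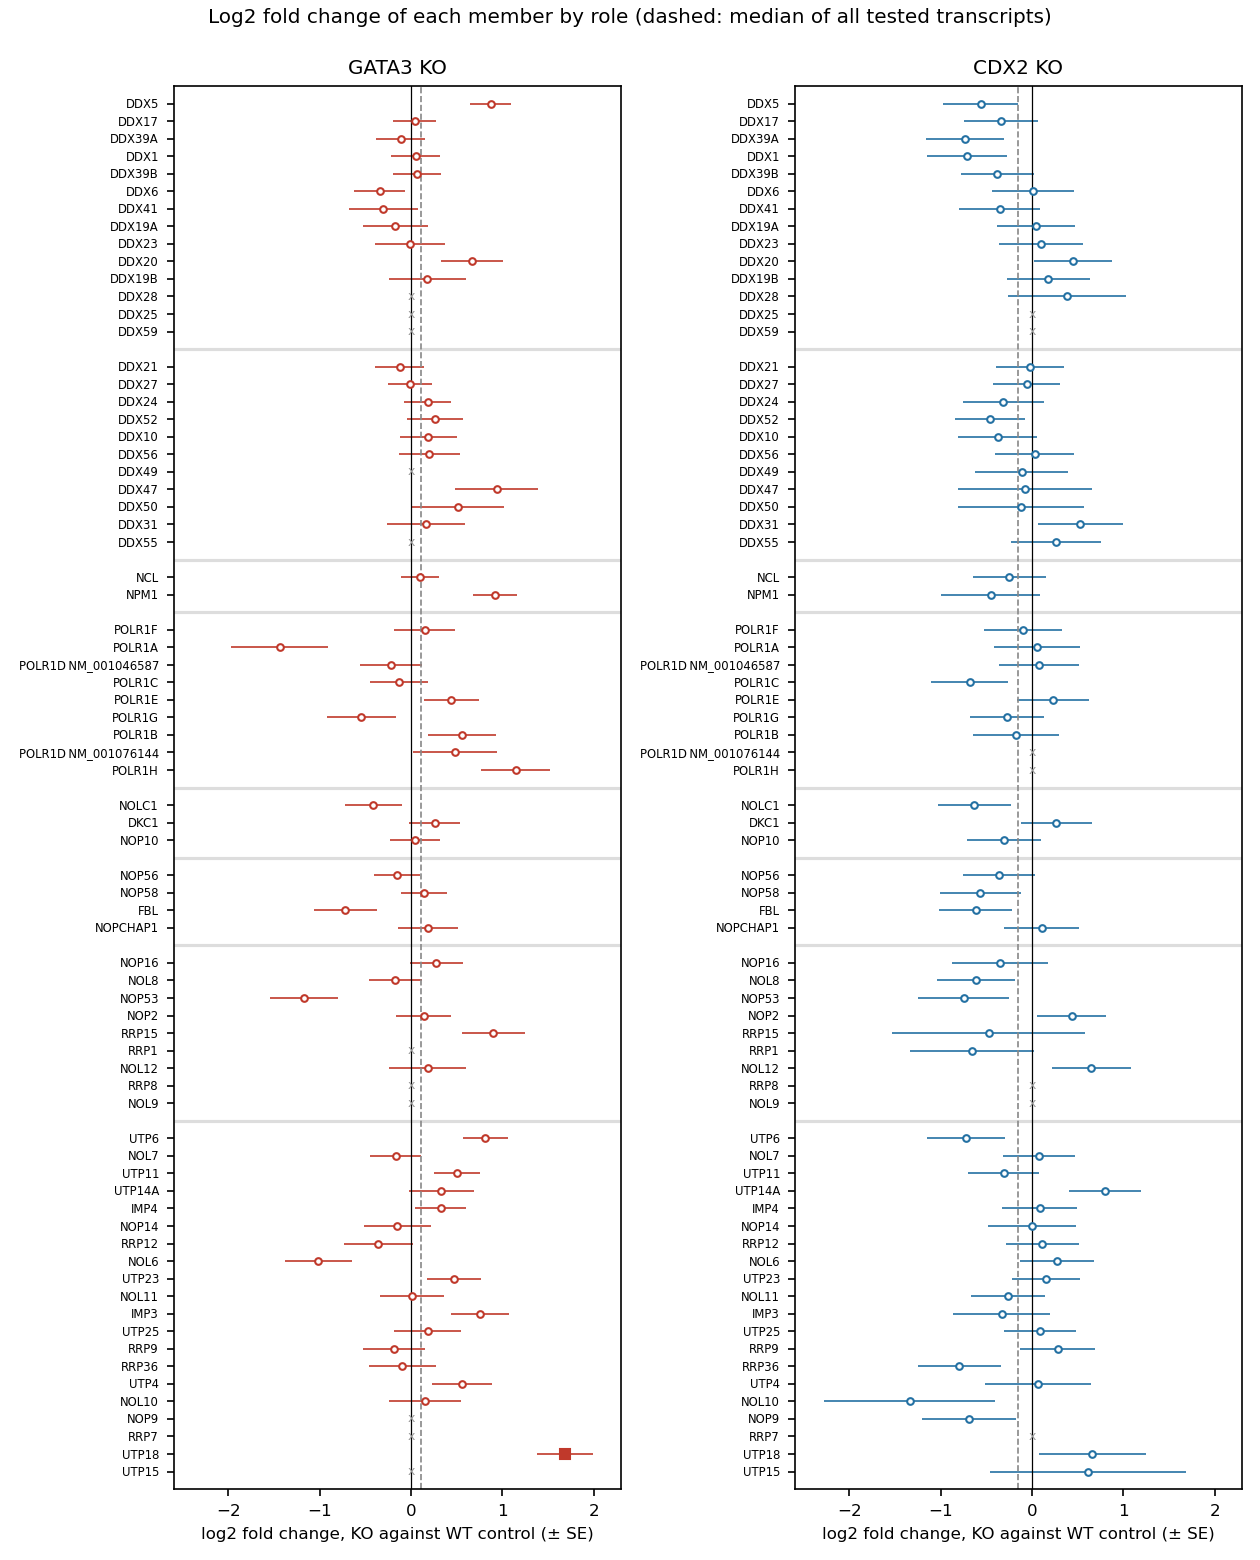
Log2 fold change of each member against WT control with its SE (whiskers) in GATA3 KO and CDX2 KO. Blocks from top to bottom hold other DDX genes, ribosome assembly DDX genes, NCL and NPM1, RNA polymerase I, box H/ACA, box C/D, large subunit and small subunit factors. The filled square marks the called member, UTP18 (1.69), a cross marks a member below the filter, the dashed line is the median of all tested transcripts (0.11 and -0.15), and NOL3, which was not tested, is not drawn.

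In the table of GATA3 KO 12 member transcripts were below the filter and in that of CDX2 KO 8. DDX59 and NOP9, chosen after their values were seen, did not overlap between GATA3 KO and WT embryos. The share of all transcripts below the filter without overlap was not computed. It is therefore not known whether such a separation is common there. DDX59 was 2.37, 3.24 and 0 in WT and 5.79, 7.75, 8.34 and 5.75 in GATA3 KO embryos, on at most 3 reads in WT. NOP9, a small subunit factor, was 11.05, 11.9 and 12.4 in WT and 5.79, 7.75, 7.15 and 10.7 in KO embryos. With no filter their log2 fold changes were 1.69 (limma adjusted p = 0.118) and -0.56 (limma adjusted p = 0.452). In CDX2 KO embryos both overlapped WT.

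In CDX2 KO blastocysts no member was called by limma among 65 tested, beside 0% of all 5719 tested transcripts, and none had an unadjusted p under 0.05, beside 3.27% of all. On the recovered counts edgeR called 0 members and 0.0175% of all transcripts, and DESeq2 called 0 members and 0.122% of all. Each had 1 member at an unadjusted p under 0.05, UTP14A (1.538%, beside 4.511% of all with edgeR and 4.529% with DESeq2). All CDX2 KO embryos lay above WT for 1 member, UTP14A (1.538%, beside 2.52% of all), and below WT for 1, NOLC1 (1.538%, beside 3.36%). Log2 fold changes were positive for 27 and negative for 38, with a median of -0.11 beside -0.15 for all. The median SE of members was 0.43, beside 0.33 in GATA3 KO. Leaving out any 1 embryo also gave 0 called members. At an unadjusted p under 0.05 there were then 3 members (4.688%, beside 7.443% of all) without CDX2 KO embryo 5, 2 (3.03%, beside 2.161%) without embryo 2, and 0 without any of the other embryos. Without the shallow embryo 3 the medians of members and of all transcripts were both -0.05.

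UTP14A, a processome component chosen after its values were seen, and DKC1 are the members on chromosome X. UTP14A was 32.4, 46.6 and 40.1 in WT and 77.2, 88.5, 70.5 and 47.2 in CDX2 KO embryos 2 to 5 (log2 fold change 0.80, SE 0.39, limma adjusted p = 0.90). Embryo 5, the lowest KO embryo, was the one with Y-linked counts (155), and embryos 2 to 4 had 0. In the table of GATA3 KO UTP14A was 22.1, 34.6 and 28.0 in WT and 23.2, 51.3, 59.5 and 21.4 in GATA3 KO embryos, of which embryo 6, the last, had 68 Y-linked counts. GATA3 KO embryo 3, with 0 Y-linked counts, was nearly as low. DKC1 too was lowest in the KO embryo with Y-linked counts, at 50.9 in GATA3 KO and, by a small margin, at 82.7 in CDX2 KO. With Y-linked expression as a covariate the log2 fold change of UTP14A went from 0.80 to 0.26 (SE 0.57) in CDX2 KO and from 0.33 to -0.36 (SE 0.50) in GATA3 KO. That of DKC1 went from 0.27 to 0.0088 (SE 0.59) in CDX2 KO and from 0.26 to -0.26 (SE 0.38) in GATA3 KO. Each KO group holds a single embryo with Y-linked counts over 5 and the WT group only such embryos, so that no value within embryos lacking them could be had.

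**Figure D4:**
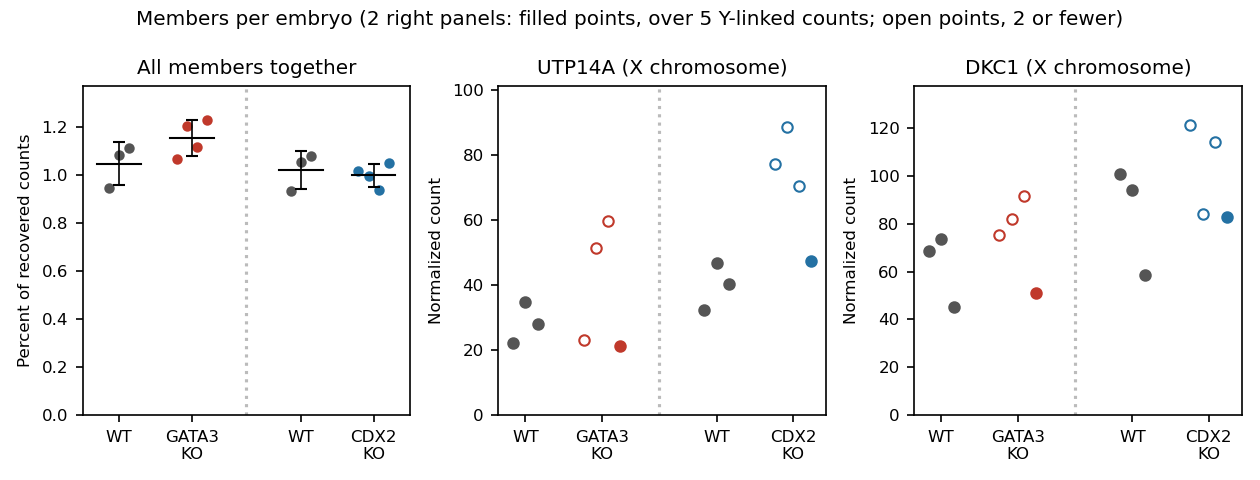
Percent of recovered counts that fell on members (left, with mean and SD), and normalized counts of UTP14A and DKC1, each per embryo and table. In the panels of UTP14A and DKC1 filled points are embryos with over 5 Y-linked counts and open points embryos with 2 or fewer, and the share of members lies near 1% in every embryo.

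All members together took 0.946% to 1.11% of the counts in WT and 1.065% to 1.23% in GATA3 KO embryos. The means were 1.05% ± 0.089 (SD, n = 3) and 1.15% ± 0.076 (SD, n = 4), a difference of 0.107 percentage points, and the groups overlapped. Members were chosen with earlier results of these data known, so the difference in share was not tested. Abundant members, such as NCL, NPM1 and DDX5, weigh most in this share. In the table of CDX2 KO the share was 1.02% ± 0.078 (SD, n = 3) in WT and 0.999% ± 0.047 (SD, n = 4) in KO embryos, with overlap. Members varied less between embryos of a group than the typical transcript. Their median coefficient of variation was 24.4% in WT and 21.6% in GATA3 KO embryos, beside 28.5% and 26.8% for all tested transcripts, and 28.0% in WT and 34.4% in CDX2 KO embryos of the other table, beside 34.0% and 47.2%. This is a description, since members and all transcripts differ in level. UTP11 varied least in the table of GATA3 KO, with 3.18% in WT and 4.57% in KO embryos, and DDX47 most in WT, with 78.5%.

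The rest of the pathway was followed through 115 other genes written down by role, of which 96 were listed. In GATA3 KO 83 were tested and 1 was called as higher, where 2.01% of all transcripts were called. It was RSL24D1, a factor of late pre-60S particles. RSL24D1 was 20.5, 14.05 and 10.9 in WT and 47.8, 41.4, 32.2 and 40.2 in GATA3 KO embryos (log2 fold change 1.39, SE 0.30, limma adjusted p = 0.0250), and in CDX2 KO it was 22.1, 44.3, 34.8 and 32.8 beside 31.7, 17.4 and 14.9 in WT, with overlap. The call was lost on dropping WT control embryo 2 or 3 or GATA3 KO embryo 3 or 4, with no trend and with the Y-linked covariate. A total of 18 pathway genes (21.69%, beside 22.6% of all transcripts) had an unadjusted p under 0.05, 12 with higher and 6 with lower levels (9 and 8 after quantile normalization, 6 and 6 with edgeR), and the median log2 fold change was 0.21, beside 0.11. TAF1D, a subunit of the RNA polymerase I selectivity factor, lay below WT in every KO embryo of both tables. It was 38.7, 31.3 and 34.2 in WT and 11.6, 15.9, 19.1 and 19.7 in GATA3 KO embryos (-1.05, SE 0.30, limma adjusted p = 0.0634), and 59.0, 39.5 and 50.4 in WT and 4.90, 28.0, 24.9 and 25.2 in CDX2 KO embryos (-1.44, SE 0.55, limma adjusted p = 0.90). Both comparisons use the same WT embryos, and TAF1D was chosen after its values were seen. In GATA3 KO 2.41% of tested pathway genes lay below WT in every KO embryo, beside 7.05% of all transcripts. The shares in CDX2 KO were 6.818% and 3.36%, and the share below WT in both tables was not computed. In CDX2 KO 88 of the pathway genes were tested, none was called by limma, edgeR or DESeq2, and 4 (4.545%), 3 (3.409%) and 3 (3.409%) had an unadjusted p under 0.05, beside 3.27%, 4.511% and 4.529% of all transcripts. Their median log2 fold change in limma was -0.21, beside -0.15.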

How the data were processed

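Per the labels and the study's methods, reads of single blastocysts were trimmed with Trimmomatic, mapped to ARS-UCD1.2 with HISAT2 and counted per RefSeq transcript with featureCounts. The authors deposited 2 tables of normalized counts, a signal equal to the count divided by a DESeq2 size factor within the table. Their columns of fold changes, test scores and p-values were not used. Every value was a whole multiple of 1 step per column (tolerance 0.02), so counts were recovered for 100% of values. Counts of the same WT embryos were 1.82 to 1.88 times higher in the table of CDX2 KO (median over transcripts), and the cause is not given in the sources used here.

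Symbols for 98.6% of rows came from RefSeq's annotation of ARS-UCD2.0, and no coordinates or sequences are given. Members, role lists and pathway lists were chosen with earlier results of these data known. Columns of WT embryos carry their sample's number, and KO columns could be tied only to a group. limma 3.58.1 (R 4.3.3) with a trended prior was run on log2(normalized count + 1) within each table, keeping transcripts whose mean reached 10 and adjusting p-values by Benjamini-Hochberg over the table. The design had been written for normalized or raw counts, and this is its branch for normalized values. edgeR 4.0.16 and DESeq2 1.42.0 were run on recovered counts, and an adjusted p that DESeq2 left out stays out. Further settings tried were pseudocounts of 0.1 and 5, dropping the filter or raising it to 100, scaling by quantiles or by median ratios, no trend, a covariate for over 5 Y-linked counts, other fold thresholds and leaving out each embryo. Scripts were tested on simulated data.

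Members were named if called in either table by limma, edgeR or DESeq2, if not overlapping in both tables, if FBL, NCL, NPM1, DKC1, IMP3, IMP4 or POLR1, or if highest in mean, rise or fall within a role list in the table of GATA3 KO. Python 3.11.15, numpy 2.4.6, pandas 2.3.3, scipy 1.17.1 and matplotlib 3.10.9 were used. Transcript lengths were not used, so levels are not compared between genes, and the highest mean count served only to choose names.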

Additional observations from a re-analysis of the deposited data

Results flagged for a closer look

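Among 58 sets of 4 KO values of named members, 3 held an embryo far from the other 3, and chance alone gives about 1 in 20, or 2.9. DDX21 was 82.93 in GATA3 KO embryo 6, above the other 3. IMP3 was 49.93 in CDX2 KO embryo 5, above the other 3. NOP53 was 51.47 in CDX2 KO embryo 2, above the other 3. DDX5 and UTP6 were the named members for which all KO embryos lay on one side of the mean log2 level of WT in GATA3 KO and all on the other side in CDX2 KO: DDX5 had a log2 fold change of 0.87 in GATA3 KO and -0.56 in CDX2 KO, and UTP6 had 0.81 and -0.72. The values in CDX2 KO came close to 0 under some settings, at -0.02 for DDX5 and -0.08 for UTP6. Other named members with opposite signs, such as NPM1 and NOL6, had KO embryos on both sides of that mean in at least 1 table. Neither DDX5 nor UTP6 passed the threshold in limma at the settings of the report, but in GATA3 KO DDX5 passed with DESeq2 and under some other limma settings, and UTP6 in limma without WT control embryo 1. The difference between the knockouts was not tested, since both share the WT embryos.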

How the results depend on the processing

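The count of members called in GATA3 KO was 1, UTP18, under 6 of 12 settings tried apart from leaving out embryos. Beside 86 calls over all 4271 transcripts in the main test, it was 3 with a pseudocount of 5 (145 of 4271 in all), with no filter (172 of 8576) and with DESeq2 (164 of 4271), each time DDX5, NPM1 and UTP18, 2 with quantile normalization (NPM1 and UTP18, 84 of 4271 in all), 2 of 5 at a mean of at least 100 (DDX5 and NPM1, 37 of 395 in all, where UTP18 was not tested) and 0 with the Y-linked covariate, which left few transcripts called in all (1 of 4271). Leaving out 1 embryo at a time gave 0 to 4, and the calls over all transcripts moved with it: 4 of 304 without WT control embryo 1, 0 of 1 without WT control embryo 2, 0 of 1 without GATA3 KO embryo 3 and 3 of 187 without GATA3 KO embryo 6. The count of other pathway genes in GATA3 KO, 1 in the main test, was 0 at a mean of at least 100 (none tested), 0 with no trend, 0 with the Y-linked covariate and 2 with edgeR (RSL24D1 and TAF1D), and 0 to 2 when embryos were left out. RSL24D1 was lost without WT control embryo 2 or 3 and without GATA3 KO embryo 3 or 4. In CDX2 KO both counts were 0 under every setting tried. The median log2 fold change of members minus that of all transcripts was 0.0368 in GATA3 KO, 0.2326 with no filter and -0.0684 (without WT control embryo 1) to 0.1053 (without WT control embryo 3) when embryos were left out, so that its sign rests on single embryos. It was 0.0369 in CDX2 KO and -0.1702 with no filter, with a range of -0.0937 (without CDX2 KO embryo 5) to 0.0172 when embryos were left out. Named members gave 453 values in GATA3 KO and 435 in CDX2 KO, each of 1 member in 1 setting other than the main test. Of these, 13 and 43 had the sign opposite to the main test, with neither value past the threshold. These are not counts of members, since 1 member can change sign in several settings. In GATA3 KO the sign changes fell on DDX21, DDX27, DKC1, NCL, NOLC1, NOP58, POLR1C and POLR1F. No paired analysis was possible because the KO columns carry numbers of their own that do not match the replicate numbers of the labels. Depth limits what can be said of members near 3 counts.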
